A study of Astyanax mexicanus with 6 samples.

Results

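The regions described are stretches of the 25 assembled chromosomes of Astyanax mexicanus, the Mexican tetra. Each held a peak of open chromatin listed for the liver of Tinaja cavefish and none listed for the other forms profiled. A peak missing from a list does not show that the chromatin was closed. The Tinaja, Pachon and Surface peaks were joined wherever they overlapped or touched, and each resulting union region was taken when it held a Tinaja peak and no Pachon or Surface peak. This gave 11867 Tinaja-only regions, 15.8% of the 75330 union regions on the chromosomes, out of 110214 in the whole series. A further 6144 Tinaja-only regions lay on unplaced scaffolds and were left out by the rule.

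The groups were Tinaja cave fish, Pachon cave fish and Surface fish, 2 liver samples of each, with no agent or genetic change named in the labels. ATAC-seq was used, in which the Tn5 transposase inserts adapters into accessible DNA of isolated nuclei. Each form had 1 peak list, filed under its first replicate, and ages, sexes and any pooling of animals are not stated in the labels. The lists hold positions only, so read depth is unknown, a region is either in a list or not, and there is no spread between replicates. Every difference between forms below is therefore a difference between lists, with no test. Wilson 95% intervals cover counting error alone, and neighbouring regions are not independent.

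As background, chromatin opens where nucleosomes are displaced, at promoters, enhancers and other sites bound by regulatory proteins, and distal sites are usually more specific to a tissue than promoters are. Cave forms of this fish have lost their eyes and pigment and are known for fat storage and resistance to starvation, in which the liver takes part. The liver label was not checked against marker genes, and no gene, promoter or sequence is given for a region, because no genome or annotation of the build of the lists was used here. Positions are those of the lists, whose genome build the labels do not name, counted from 1.

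Tinaja-only regions were small, and each consisted of a single Tinaja peak. Their median length was 338 bp (order-statistic 95% interval 335 to 341), against 322 bp for the 5609 Pachon-only regions and 354 bp for the 9698 Surface-only regions. Regions of all 3 lists had a median of 789 bp, but these are merged peaks and longer in part by construction. The shortest Tinaja-only region was 226 bp, which was also the narrowest Tinaja peak on the chromosomes. Of the 11867 regions, 3341 (28.2%, interval 27.4 to 29.0) were at most 276 bp, within 50 bp of that minimum. The middle of the distribution ran from 270 bp at the lower quartile to 451 bp at the upper, and 1 in 10 regions was above 626 bp.

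**Figure D1:**
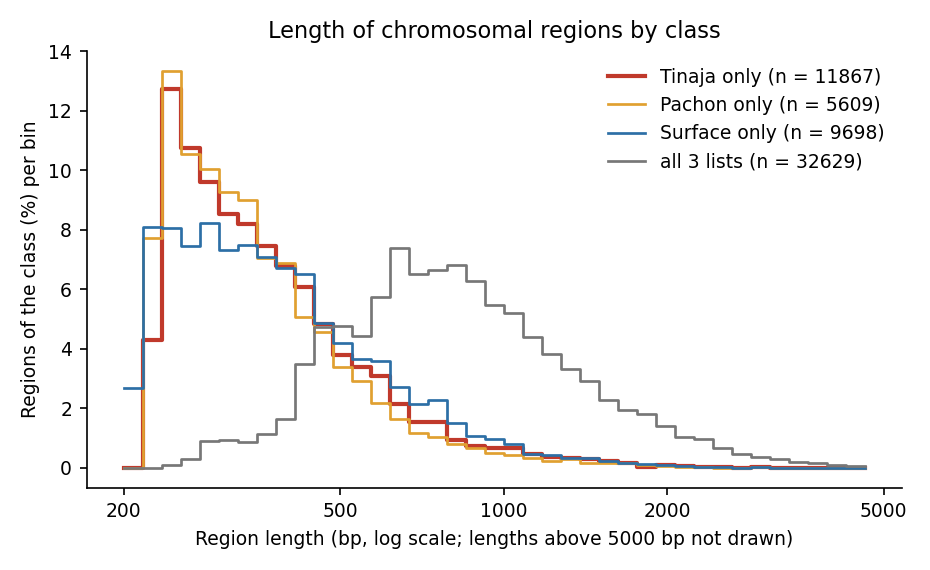
Lengths of chromosomal regions in bins of equal width on a log scale, as a percentage of each class, for regions of the Tinaja list only, the Pachon list only, the Surface list only and all 3 lists. The 3 single-list classes pile up close to their minimum, with medians of 338, 322 and 354 bp, and regions of all 3 lists centre on 789 bp.

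The narrower a Tinaja peak, the more often it had no counterpart. This holds in part by construction, because a wider peak has more room to overlap one of another list. How large that part is was not tested. Of the 9659 Tinaja peaks under 300 bp on the chromosomes, 4439 (46.0%, interval 45.0 to 47.0) were Tinaja-only regions. The share was 26.6% of 19339 peaks from 300 to under 500 bp, 9.12% of 21278 peaks from 500 to under 1000 bp, 4.48% of 6856 peaks from 1000 to under 2000 bp and 2.71% of 1106 peaks of 2000 bp or more. The Surface list followed the same course, with 40.5% of its peaks under 300 bp and 1.85% of those of 2000 bp or more held by it alone. For the Pachon list these shares were 27.4% and 0.666%. Tinaja-only regions made up 20.4% of the 58238 Tinaja peaks on the chromosomes and 12.9% of the 37.2 Mb they covered.

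The order of Tinaja-only and Surface-only numbers turned with the peaks that were kept. Tinaja had 58238 peaks on the chromosomes, Pachon 50115 and Surface 50924. With all peaks, Tinaja-only regions were 1.22 times as numerous as Surface-only regions and 2.12 times as numerous as Pachon-only regions. In another setting each list was cut to its 72521 widest peaks, counted over chromosomes and scaffolds together. This changes list length and removes almost only narrow Tinaja peaks, and it need not leave equal numbers on the chromosomes. There, 7901 Tinaja-only regions stood beside 6944 Pachon-only and 10644 Surface-only regions, and the ratio to Surface turned to 0.742.

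A minority of Tinaja-only regions was long: 337 (2.84%, interval 2.56 to 3.15) reached 1000 bp and 30 reached 2000 bp. The 20 longest ran from 2104 to 4501 bp and lay on 16 chromosomes. The longest, chr16:13367721-13372221, was 4501 bp. It lay 29766 bp from the nearest Surface peak and 69182 bp from the nearest Pachon peak. The next, chr5:31349640-31353742, was 4103 bp, with the nearest Surface peak at 52928 bp and the nearest Pachon peak at 53020 bp. The third, chr12:25831865-25835209, was 3345 bp and lay 7031 bp from a Surface peak. On chromosome 23, the 3066 bp region chr23:10216853-10219918 had a Pachon peak at 9020 bp and no Surface peak nearer than 37006 bp.

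The remaining long regions ranged from far from any peak of another form to almost adjoining one. On chromosome 6, chr6:16857947-16860898 was 2952 bp long, was flanked on both sides by further Tinaja-only regions and lay 12057 bp from the nearest Pachon peak. A 2337 bp region, chr3:627592-629928, likewise stood between Tinaja-only regions, with the nearest Pachon peak at 40256 bp. By contrast, chr9:38187984-38190087, 2104 bp long, lay 41 bp from a Pachon peak, although the nearest Surface peak was 54531 bp away. The region chr3:72900574-72903265, 2692 bp long, lay 239 bp from a Surface peak, and chr4:5135197-5137562, 2366 bp long, lay 497 bp from a Pachon peak and 523 bp from a Surface peak. Among the 20, only these 3 had a peak of another form within 1000 bp, 8 had none within 10 kb and 6 had none within 20 kb. A Pachon peak was the nearer in 13 and a Surface peak in 7. In some of them both distances were almost equal, as in chr3:627592-629928, where the nearest Surface peak lay at 40268 bp.

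The rule is a presence or absence of overlap, and few members lay within 50 bp of its edge. The number depended more on how much overlap counts as sharing: with a reciprocal overlap of 50% required it was 15974. Just inside it, chr7:28178166-28178429 (264 bp) and chr19:11768456-11768837 (382 bp) lay 1 bp from a Surface and a Pachon peak in turn, and chr21:8993351-8993968 (618 bp) lay 3 bp from a Surface peak. Just outside, in chr16:24478712-24479346, a Tinaja peak of 371 bp touched a Surface peak of 264 bp with 0 bp of overlap, and on chr23:8259566-8260659 and chr24:36826973-36827999 the overlap with a Surface peak was 1 bp. Of the 11867 members, 42 (0.354%) had a peak of another form within 50 bp. Of the 45311 Tinaja regions shared with another form, 82 (0.181%) were overlapped by at most 50 bp.

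The distance from Tinaja-only regions to peaks of the other forms was close to that to the next peak of their own list. The median distance to the nearest Pachon or Surface peak was 5229 bp (interval 5108 to 5371), and 14.0% (interval 13.4 to 14.7) had such a peak within 1 kb. To the next Tinaja peak the median distance was 5163 bp (interval 5025 to 5293), and 15.4% had one within 1 kb. Taken list by list the other forms were farther, with medians of 6627 bp to Pachon and 7810 bp to Surface. For Pachon and Surface peaks the share was 48.5% within 5 kb and 69.8% within 10 kb, and 216 regions (1.82%) had none within 50 kb. With a reciprocal overlap of 50% required for sharing, which adds partly overlapping peaks to the class, the share within 1 kb was 36.1%. Length changed little with this distance: the median was 334 bp for regions up to 500 bp from another form's peak, 351 bp for those 20 to 50 kb away and 328 bp for the 216 farther away. Regions of at least 1000 bp made up 4.64% (interval 3.66 to 5.87) of those 20 to 50 kb away, 2.78% (interval 1.28 to 5.93) of those farther away and 2.15% (interval 1.33 to 3.47) of those up to 500 bp away.

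The 5 regions farthest from any Pachon or Surface peak were short. Of these, 4 lay together on chromosome 25, at 44299366 to 44299641, 44320720 to 44320982, 44336166 to 44336432 and 44369014 to 44369270. They were 276, 263, 267 and 257 bp long, and lay 239540, 257360, 241910 and 209072 bp from the nearest peak of another form. The remaining one, chr2:26307879-26308149, was 271 bp long and 140910 bp away. None of the 5 reached 300 bp, so none was present when peaks under 300 bp were dropped or when equal numbers of widest peaks were kept.

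Tinaja-only regions stood farther from the open chromatin common to all forms than Surface-only regions did, in a description with no test. The median distance to the nearest region of all 3 lists, a target that is the same for each class, was 12312 bp (interval 11901 to 12672) for Tinaja-only regions, 10877 bp (interval 10388 to 11378) for Pachon-only regions and 6190 bp (interval 5947 to 6418) for Surface-only regions. Within 1 kb of such a region lay 5.76% of Tinaja-only, 6.97% of Pachon-only and 15.1% of Surface-only regions. Beyond 50 kb lay 15.9% of Tinaja-only, 12.5% of Pachon-only and 6.0% of Surface-only regions. For Tinaja-only regions the median stayed between 12298 and 13963 bp under the 5 alternative ways of building regions. The distances of Pachon-only and Surface-only regions were not recomputed there, so the difference between classes was not checked under them.

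**Figure D2:**
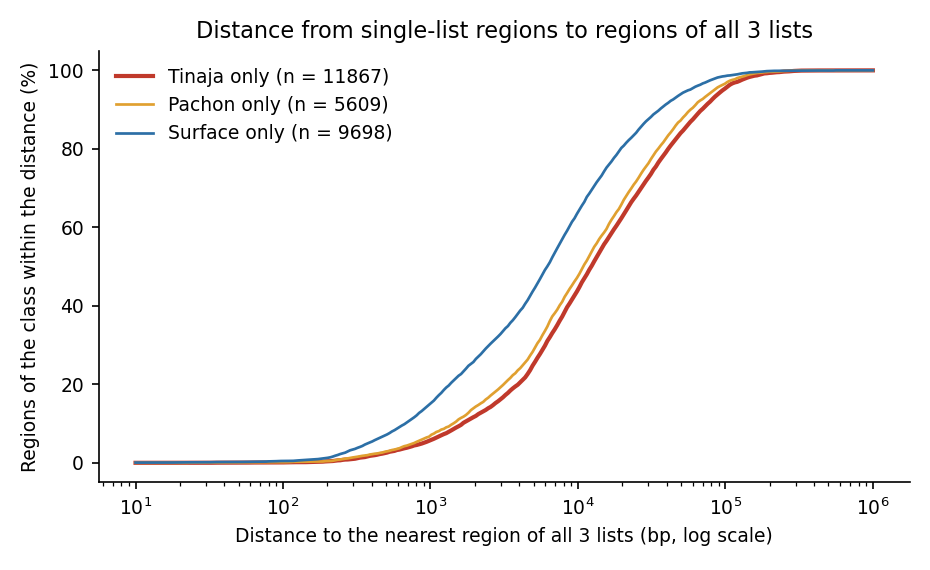
Cumulative percentage of Tinaja-only, Pachon-only and Surface-only regions (lines) within a given distance of the nearest region of all 3 lists, on a log axis in bp. The Tinaja-only and Pachon-only curves run close together, with medians of 12312 and 10877 bp, to the right of the Surface-only curve, whose median is 6190 bp.

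Of the other forms, Pachon was more often the nearer. A Pachon peak was nearer than any Surface peak for 6598 Tinaja-only regions and a Surface peak was nearer for 5138, with 131 ties, so that Pachon was nearer in 56.2% (interval 55.3 to 57.1) of the untied regions. The Pachon list is slightly shorter than the Surface list on the chromosomes. Where the nearest site is held by both lists, the edges of its peaks set which is nearer. For chr3:627592-629928 the distances were 40256 bp to Pachon and 40268 bp to Surface. How many regions this concerned was not counted. Pachon was the more frequent nearer list on 21 of 25 chromosomes. The median distance was 6627 bp to a Pachon peak and 7810 bp to a Surface peak, and 3.40% of the regions had no Pachon peak within 50 kb and 7.82% had no Surface peak within 50 kb. Under the alternative ways of building regions the Pachon share lay between 54.4% and 57.5%. An imbalance was also seen in the other classes. Tinaja was nearer than Surface for 61.7% of untied Pachon-only regions, and nearer than Pachon for 60.8% of untied Surface-only regions. In both, Tinaja was the more frequent nearer list on 25 of 25 chromosomes. The Tinaja list is the longest.

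Tinaja-only regions came in groups along the chromosome. The next region downstream was also Tinaja-only for 24.2% (interval 23.4 to 25.0) of them, 1.54 times the 15.8% of all regions. The corresponding ratio was 1.52 for Pachon-only and 1.38 for Surface-only regions, so a tendency to sit beside the same class was seen in each list. What else stood beside them differed between the cave forms and Surface. After a Tinaja-only region, a region of both caves followed in 13.1% of cases, against 10.3% of all regions, and a Pachon-only region in 8.95%, against 7.45%. A Surface-only region followed in 10.6%, against 12.9% of all regions, and a region of all 3 lists in 33.8%, against 43.3%. Pachon-only regions had much the same neighbours. A Tinaja-only region followed them in 19.4%, against 15.8% of all regions, and a region of both caves in 12.8%. A Surface-only region followed in 10.9% and a region of all 3 lists in 36.2%. After a Surface-only region, regions of all 3 lists followed in 43.4%.

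**Figure D3:**
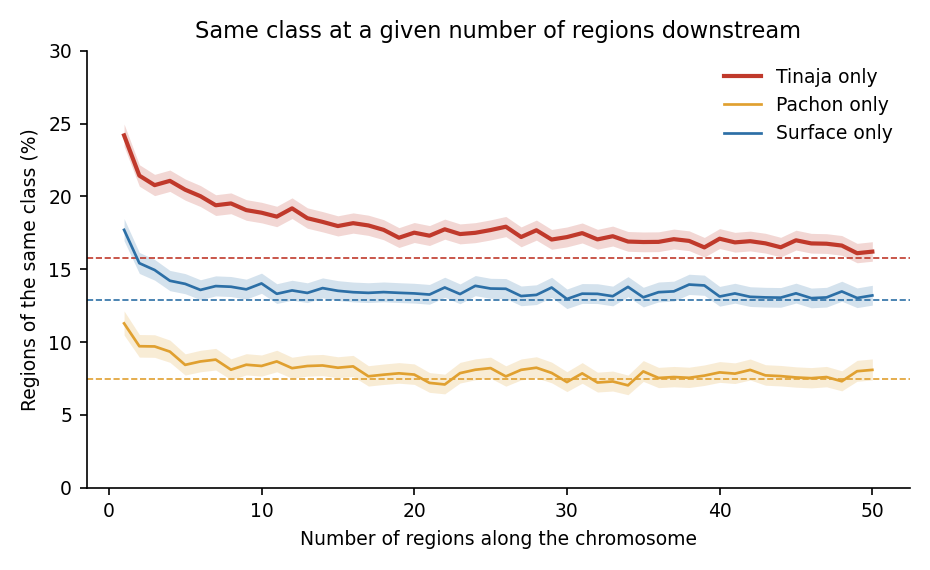
Percentage of Tinaja-only, Pachon-only and Surface-only regions (lines, with Wilson 95% bands) for which the region a given number of steps downstream on the same chromosome belongs to the same class. Dashed lines mark each class's share of all regions. The Tinaja-only line falls with distance, with 24.2% at 1 region and 16.2% at 50, close to the dashed 15.8%.

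This clustering faded with distance. The share of Tinaja-only regions was 21.4% at the second region downstream, 18.9% at the tenth and 17.5% at the twentieth. It was 16.2% (interval 15.6 to 16.9) at 50 regions, 16.46% (interval 15.79 to 17.15) at 100 and 15.9% at 200, against 15.75% of all regions. The decline was thus not steady, and at 100 regions the share was still slightly above that of all regions. Of the members, 4883 (41.1%) belonged to runs of 2 or more consecutive Tinaja-only regions, and 68 runs had 5 or more. Among Pachon-only regions 20.7% were in runs of 2 or more, with 2 runs of 5 or more, and among Surface-only regions 31.4%, with 16 such runs. A more frequent class gives longer runs without any clustering, so these counts do not rank the forms.

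The longest run, of 13 regions, occupied 84.0 kb at chr13:30178335-30262331. Its members were 235 to 764 bp long with a median of 412 bp. It began 1664 bp after a region of all 3 lists and ended 510 bp before one of both caves, so it lay next to shared open chromatin on either side. The second, of 8 regions, covered 46.2 kb at chr20:34185524-34231734, with members of 227 to 894 bp. A run of 7 at chr1:8630127-8681155 covered 51.0 kb, one at chr6:22532725-22637903 covered 105 kb, and one at chr12:15044429-15214291 covered 170 kb. These 3 are the first in chromosome order of 8 runs of 7 regions. With peaks under 300 bp dropped, the runs on chromosomes 20, 6 and 12 came to 4 regions each. None of the 5 named runs included a region longer than 894 bp.

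Every chromosome carried Tinaja-only regions, in unequal shares. The number ranged from 110 on chromosome 11 to 985 on chromosome 3, and the share of a chromosome's regions had a median of 15.8%. The highest shares were on chromosome 18, with 645 of 3449 regions (18.7%, interval 17.4 to 20.04), chromosome 21, with 237 of 1298 (18.3%, interval 16.3 to 20.5), and chromosome 7, with 584 of 3310 (17.6%, interval 16.4 to 19.0). The lowest were on chromosome 17, with 249 of 2217 (11.2%, interval 9.98 to 12.6), chromosome 11, with 110 of 893 (12.3%, interval 10.3 to 14.6), and chromosome 15, with 385 of 3003 (12.8%, interval 11.7 to 14.1). The highest share was 1.67 times the lowest, and the same ratio was 1.503 for Pachon-only and 1.34 for Surface-only regions. Per Mb up to the last peak, chromosomes held 8.79 to 15.6 Tinaja-only regions.

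Chromosome 17, lowest for Tinaja-only regions, had the highest Surface-only share (15.0%, interval 13.6 to 16.6). With all peaks the Tinaja-only share exceeded the Surface-only share on 21 chromosomes and fell short of it on chromosomes 11, 15, 17 and 22. When each list was limited to the same number of its widest peaks, the Tinaja-only share exceeded the Surface-only share on 0 of the 25 chromosomes. Chromosome 17 was the lowest under 4 of the 5 alternatives and chromosome 11 under the other, and the highest was chromosome 18 or 21 under each. Within chromosomes no end or middle stood out: in 10 equal parts of the length, over all chromosomes together, the share lay between 14.9% and 16.1%.

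**Figure D4:**
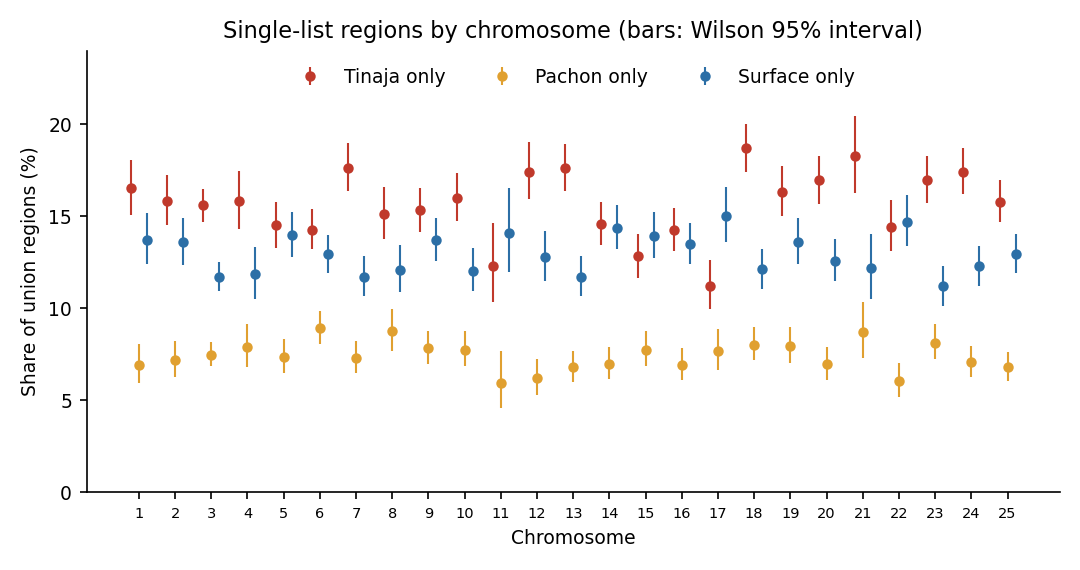
Share of each chromosome's union regions, in percent, that were Tinaja-only, Pachon-only and Surface-only, with Wilson 95% intervals as bars. Tinaja-only shares run between 11.2% on chromosome 17 and 18.7% on chromosome 18 and lie above the Surface-only shares except on chromosomes 11, 15, 17 and 22, with all peaks kept. With equal numbers of widest peaks they exceed them on 0 chromosomes.

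At a finer scale the share varied much more. In 938 windows of 1 Mb with at least 20 regions it ran between 1.64% and 54.7%, with a median of 14.9% and quartiles of 10.8% and 20%. Every one of these windows held at least 1 Tinaja-only region. Windows hold far fewer regions than chromosomes, so their shares carry more counting error. On chromosome 21 from 19000001, for example, 17 of 32 regions (53.1%) had an interval of 36.4 to 69.1. How much of the spread between windows is counting error was not tested. The share was at least 40% in 15 windows on 11 chromosomes, which held 357 members (3.01%). The highest Pachon-only share of a window was 25.6% and the highest Surface-only share 34.1%, from lower medians of 7.25% and 12.3%. With 5 alternatives of building regions the number of windows at 40% or more was 5 to 21, the lowest with equal numbers of widest peaks.

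Windows rich in Tinaja-only regions were sparse windows in which the other lists, and Surface most, had few peaks. The 15 windows held a mean of 43.5 Tinaja, 23.4 Pachon and 16.0 Surface peaks, whereas the 923 others held 62.3 Tinaja, 53.9 Pachon and 54.9 Surface peaks. Tinaja peaks themselves were thus fewer there than elsewhere. Of the 793 regions in the rich windows, 17.0% were held by both caves and 4.04% by Tinaja and Surface, against 10.2% and 6.55% elsewhere. Since the windows were chosen by their Tinaja-only share, low counts in the other lists follow in part from the choice. The choice did not use the difference between Pachon and Surface directly, but it took sparse windows (median of 55 regions, against 81). Counting error is larger in sparse windows, so extreme shares are reached there more readily. Surface-only regions averaged 5.58 in the sparsest quintile of windows and 15.9 in the densest, and Pachon-only regions 4.54 and 7.26. Rich windows were not set beside others of like density, so how far this difference follows from sparseness was not tested.

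Single windows are given as examples of this composition. They are among the same 15 and were chosen by the same share, so they add no separate support. On chromosome 18 from 33000001 to 34000000 there were 61 Tinaja, 28 Pachon and 14 Surface peaks, and 35 of 64 regions were Tinaja-only. On chromosome 21 from 19000001 to 20000000, 17 of 32 regions were Tinaja-only, with 25 Tinaja, 9 Pachon and 7 Surface peaks. On chromosome 24 from 11000001 to 12000000 the lists held 48, 26 and 11 peaks in the order Tinaja, Pachon and Surface, and on chromosome 6 from 23000001 to 24000000 they held 59, 34 and 12. The window on chromosome 6 also had 18 regions of both caves and 1 of Tinaja and Surface. On chromosome 1, windows from 17000001 and from 19000001 had Tinaja-only shares of 45.2% and 42.5%. The window of chromosome 12 from 28000001 to 29000000 went the other way, with 42 Tinaja, 20 Pachon and 29 Surface peaks. Among the 10 richest windows it was the only one with more Surface than Pachon peaks. The median length of the Tinaja-only regions in these 10 windows was 310 to 506 bp.

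Tinaja-only regions made up a smaller share of the regions in dense windows than in sparse ones, as Pachon-only regions did and Surface-only regions did not. With windows sorted into quintiles by their number of regions, Tinaja-only regions averaged 9.98, 12.9, 13.2, 12.7 and 14.4 per window from the sparsest quintile to the densest, with SDs of 5.17 to 5.62 over 175 to 201 windows each. Pachon-only regions averaged 4.54 in the sparsest quintile and 7.26 in the densest, and Surface-only regions 5.58 and 15.9. Regions of all 3 lists averaged 18.6 and 51.3. The Tinaja-only share accordingly was 20.2% in the sparsest quintile and 13.0% in the densest, the Pachon-only share 9.22% and 6.53%, and the Surface-only share 11.3% and 14.3%. Number of regions and number of Tinaja-only regions are counted in the same windows, so these are descriptions.

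**Figure D5:**
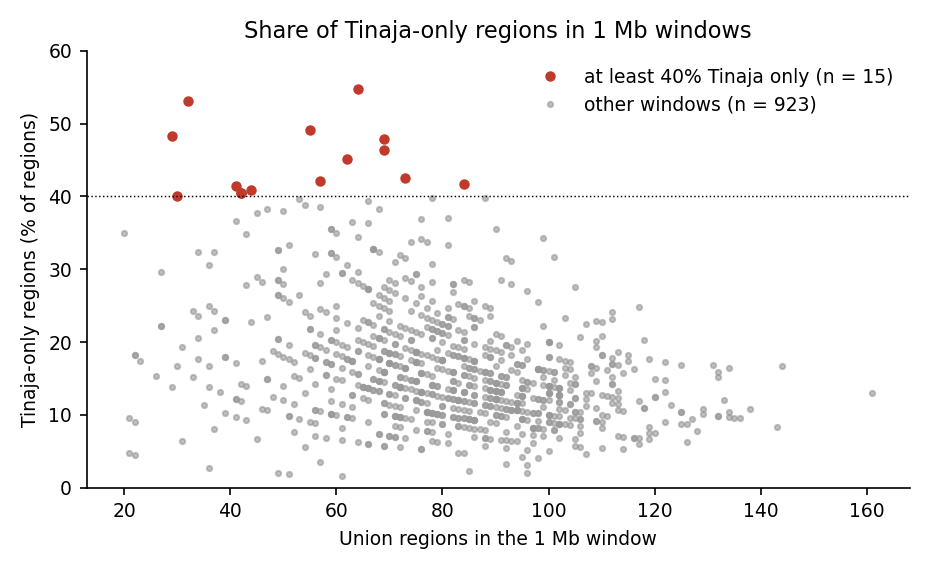
Percentage of union regions that were Tinaja-only (vertical axis) against the number of union regions (horizontal axis) in 938 windows of 1 Mb, each a point, with the 15 windows at 40% or more in red. All 15 held 84 regions or fewer, and the denser windows lie at lower shares.

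The width of Tinaja peaks in shared regions was set beside the position of Tinaja-only regions. The measure was the log2 width of the Tinaja peak minus the mean log2 width of the Pachon and Surface peaks, in the 30589 regions with exactly 1 peak of each list, and it had a median of 0.023 (order-statistic interval 0.020 to 0.025). In the region nearest to each Tinaja-only region the median was 0.059 (interval 0.055 to 0.064). With each of these 7565 shared regions counted once it was 0.045 (interval 0.038 to 0.051). In shared regions nearest to Pachon-only regions, each counted once, it was 0.042 (interval 0.034 to 0.050). Counted once, the nearest shared region was thus not wider in Tinaja beside Tinaja-only than beside Pachon-only regions beyond these intervals. Counted for each Pachon-only region the median was 0.046 (interval 0.039 to 0.053), and for each Tinaja-only region it was 0.059. Counts per single-list region use many shared regions more than once. Their intervals are therefore too narrow, and no difference is read from them. Beside Surface-only regions, with each shared region counted once, it was 0.030 (interval 0.024 to 0.036). Sorted by distance, shared regions up to 1 kb from a Tinaja-only region had a median of 0.049 (interval 0.016 to 0.092), those at 1 to 5 kb 0.0086 (interval -0.00081 to 0.018), those at 5 to 20 kb 0.028, those at 20 to 50 kb 0.023 and those farther away 0.021. The width did not change steadily with distance.

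The width of shared Tinaja peaks relative to Surface peaks rose with the local share of Tinaja-only regions. Relative to Pachon peaks it showed no steady rise. Where under 10% of the regions within 500 kb were Tinaja-only, the median log2 difference was 0.015 (interval 0.010 to 0.019, 7534 regions). It was 0.021 (interval 0.018 to 0.024, 18186 regions) at 10 to under 20% and 0.043 at 20 to under 30% (4110 regions). It was 0.081 (interval 0.059 to 0.119, 660 regions) at 30 to under 40%, and 0.098 (interval 0.042 to 0.240, 99 regions) at 40% or more. Against Surface alone, the median log2 ratio of widths was -0.029, -0.0096, 0.018, 0.080 and 0.111 from the lowest class to the highest. Against Pachon alone it was 0.043, 0.040, 0.035, 0.046 and 0.085 in the same order. The ratio to Pachon thus did not rise steadily, and its highest value rests on 99 regions. Widths and Tinaja-only regions come from the same lists, and what part library quality or depth had in either was not tested.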

How the data were processed

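Liver ATAC-seq peak lists of Tinaja, Pachon and Surface fish were analysed, 1 per form and 2 samples per form in the labels. The tools listed are MACS2, SAMtools, Bowtie2 and bcl2fastq 2.20, per the submitters' processing notes. On settings, any correction for the Tn5 insertion offset, the peak threshold and pooling of replicates, nothing is given in the sources used here. The genome build is not named in them. The score deposited by the authors is 0 for every peak and ranks none.

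Overlapping or touching peaks were merged into union regions. Distances are bases between region edges. Intervals of shares are Wilson, and those of medians come from binomial order statistics. Regions named come from the 20 longest members, the 5 farthest from other lists, the 10 richest 1 Mb windows and the 5 longest runs. The 3 chromosomes at each end and the regions at the edge of the rule are named too. Ties went to the lower chromosome number and start. Of the longest members and the richest windows only some are given, picked as examples. Members, lists and measures were chosen with earlier results of these data known. Planned gene lists, annotation and sequence measures were not run, for want of a genome of the lists' build. Code was tested on simulated data. Python 3.11.15, numpy 2.4.6, pandas 2.3.3, scipy 1.17.1 and matplotlib 3.10.9 were used.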

Additional observations from a re-analysis of the deposited data

How the results depend on the processing

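With 1 list per form, no replicate could be left out, and depth is unknown. No paired analysis was possible because each form has only 1 list, and the labels do not say which replicates it comes from. The number of Tinaja-only regions stayed within 1.5 times of 11867 except with equal numbers of widest peaks (7901). In that setting their share of regions was 11.1%, their median length 404 bp and the share with another form's peak within 1 kb 13.4%. The share followed by a Tinaja-only region was 19.4%, which was 1.74 times their share of regions, against 1.54 with all peaks. The rich windows numbered 5, and the log2 width difference in the nearest shared region was 0.074. Width differences in this section are counted per Tinaja-only region, so some shared regions enter more than once. Requiring a reciprocal overlap of 50% gave a share of 18.6%, a length of 356 bp, 36.1% within 1 kb and a width difference of 0.041. Another Tinaja-only region then followed in 22.5%, which was 1.21 times their share of regions. Dropping peaks under 300 bp gave 413 bp, 11.6% within 1 kb and a width difference of 0.037. The share within 1 kb was 12.6% with peaks merged over 200 bp and 17.4% with 500 bp peaks. Rich windows numbered 44 at 250 kb and 70 at 500 kb, with the minimum of 20 regions per window unchanged. How many windows met this minimum at those sizes was not counted. These numbers are therefore not comparable with the 15 of 938 windows at 1 Mb. With scaffolds included the share of regions was 16.3%. The cause of these shifts was not tested. The longest run had 11 to 13 regions in the 5 settings, but of the 5 named runs only 2 stayed within 1.5 times without peaks under 300 bp and 3 with equal numbers of widest peaks. There the run of 8 regions on chromosome 20 came to 4 and 5. The 20 longest regions all kept their class, except 1 with peaks merged over 200 bp. Alternatives for neighbours' widths, the nearer list and distances to shared regions were added after seeing the data. So were those for the ratio of following Tinaja-only regions to their share of regions. Alternatives for single chromosomes, windows, runs and named regions were not planned.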
